A study of Rana pirica with 9 samples.

Results

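Early response genes are switched on within minutes of a stimulus, without new protein synthesis, when calcium and MAP kinase signals reach transcription factors already bound at their promoters. In mammalian neurons firing, novelty and stress induce them, and many of their products are short-lived transcription factors or brakes on the same kinase signal. After a single stimulus their transcripts usually return to baseline within hours. The genes described here, chosen by name, were the transcription factor genes egr1, jun, junb, fosl2, cebpb and cebpd, the MAP kinase phosphatase genes dusp1 and dusp6, and the growth-arrest genes btg1 and btg2. They comprised 10 probe sets for 8 of the 10 genes, out of 15491 probe sets tested for 6485 named genes. No probe set with a single symbol was matched to fosl2 or btg2, which were not analysed here.

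Brains of Rana pirica tadpoles that had no hind limbs yet were taken after 8 days with larval salamanders, their predators, or after 8 days without predators. There were 6 control and 3 salamander arrays, each for RNA pooled from 10 brains, and no genetic change or drug is named for either group. Affymetrix arrays for the clawed frog Xenopus were used, so every probe set reads the RNA of another frog, and its name is that of the clawed frog gene. That each one reads the Rana pirica transcript of this gene was not tested, so the values below are those of probe sets and not shown to be those of the genes. The endings .L and .S name the copy of a gene on the longer or the shorter chromosome of a matching pair in the duplicated Xenopus laevis genome. Whether Rana pirica has separate copies of these genes was not tested, so such probe sets may read the same transcript. Values are log2 signals relative to the median control array of each probe set, as deposited. The control median of every probe set is therefore 0 by construction, no absolute level is known, and the number of arrays limits the precision. For the same reason the presence of brain markers could not be checked as a level.

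With salamander larvae present, none of the 10 probe sets passed limma's test of the difference from controls over all probe sets, with Benjamini-Hochberg adjustment at 0.05. Across the whole table the percentage called was also 0, with 0 of 15491. At an unadjusted p under 0.05 stood 1 of the 10, the C/EBP delta probe set cebpd.S, which was 1.27 higher on the log2 scale with salamanders, while 5.15% of all probe sets reached that level. The groups did not overlap in 0 of the 10 and in 2.33% of all probe sets, 1.09% with the salamander arrays higher and 1.24% with them lower. The differences ran from -0.78 for dusp6.L to 1.45 for dusp1.L, with 6 positive and 4 negative and a median of 0.10. Over all probe sets 50.1% were positive and the median difference was 0.0016. The median size of the difference, sign ignored, was 0.449 for the 10 and 0.445 over all probe sets.

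**Figure D1:**
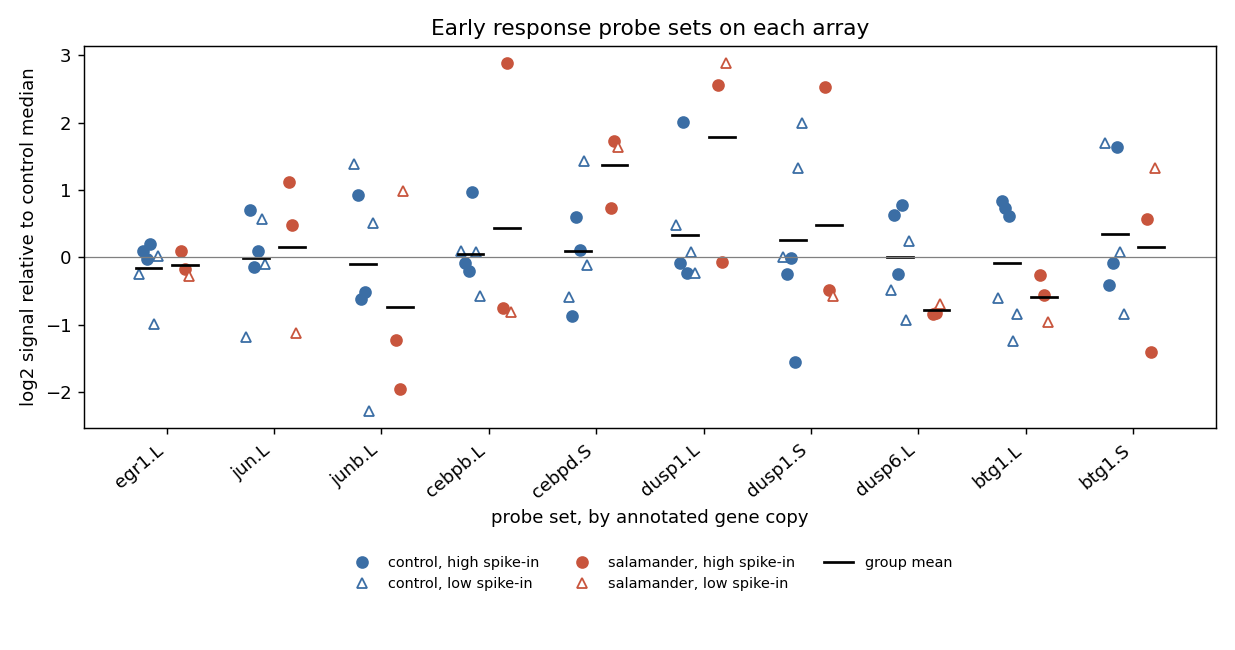
Log2 signal relative to the control median (vertical axis) for each of the 10 early response probe sets (horizontal axis) on the 6 control arrays (blue) and the 3 salamander arrays (red), with group means as black bars. Filled circles are arrays with high poly-A spike-in signal and open triangles arrays with low. The groups overlap in every probe set, and the salamander arrays of dusp6.L lie between -0.84 and -0.68 while those of cebpb.L span from -0.81 to 2.88.

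The egr1 gene encodes a zinc finger factor that is the usual marker of recently active neurons. The signal of egr1.L ran from -0.98 to 0.20 on the 6 control arrays, and was 0.09, -0.17 and -0.28 on salamander arrays 1, 2 and 3. All 3 salamander arrays lay inside the control range, and the lowest control, array 5, was lower than each of them. The salamander mean was -0.12 ± 0.19 (SD, n = 3) and the control mean -0.15 ± 0.43 (SD, n = 6), a difference of 0.04 (SE 0.43) with a 95% confidence interval of -0.89 to 0.97 (adjusted p = 0.998 in limma). This probe set was the only one of the 10 whose interval excluded a 2-fold difference (1 on the log2 scale) in either direction, which held for 2.78% of all probe sets. Its replicate SD of 0.378 was lower than that of all but 6.62% of probe sets, and 0 of its 9 values carried a mark of weak signal. A weak mark means that the rounding of the number shows a signal below 256 on that array or in the controls' median. A signal below 256 can escape the mark. Without control array 5 the difference was -0.13, and among the arrays with high spike-in signal, described below, it was also -0.13. The exclusion of a 2-fold difference was narrow and held for the values as deposited. After quantile normalization the difference was 0.08 with a larger SE of 0.45, and that interval reached past 2-fold.

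Jun and JunB are subunits of AP-1, the dimeric factor that drives many later targets of growth and stress signals. The signal of jun.L ran from -1.18 to 0.71 on control arrays and was 1.12, 0.49 and -1.13 on salamander arrays 1, 2 and 3. Salamander array 1 lay above all controls, and array 3 just above the lowest control. The difference was 0.17 (SE 0.59), with an interval of -1.13 to 1.46. It became -0.31 without salamander array 1 and 0.81 without salamander array 3. A further probe set, annotated to both copies of jun and thus outside the rule, was looked at after its values were seen. It read from -2.31 to 1.58 on control arrays and 0.61, 0.21 and 0.37 on salamander arrays, a difference of 0.58 (SE 0.70; adjusted p = 0.988 in limma). Its salamander arrays were much closer to each other than those of jun.L.

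Among the transcription factor probe sets within the rule, the junb.L signal was the widest in controls, from -2.28 to 1.39, with -1.22, -1.95 and 0.98 on the salamander arrays. All 3 fell within the control range. The difference was -0.64 (SE 0.85; interval -2.49 to 1.21), and leaving out salamander array 3 or 2 gave -1.49 or -0.03. Its replicate SD of 1.39 was above that of 88.1% of probe sets, so that neither a 4-fold fall (2 on the log2 scale) nor a 2-fold rise was excluded.

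The C/EBP factors beta and delta are bZIP proteins induced by cytokines, cyclic AMP and glucocorticoids, and in mammalian brain also by neuronal activity. The cebpd.S signal ran from -0.87 to 1.43 on control arrays and was 0.74, 1.72 and 1.63 on salamander arrays 1, 2 and 3. Salamander arrays 2 and 3 lay above all controls, and array 1 above 5 of the 6, with control array 5 between them. The salamander mean was 1.36 ± 0.55 (SD, n = 3) and the control mean 0.10 ± 0.83 (SD, n = 6). The difference of 1.27 (SE 0.56), or 2.41-fold, had an interval of 0.05 to 2.49, and in limma its p was 0.0431 unadjusted and 0.945 adjusted. The exact two-sided permutation p over the arrays was 0.0476, where 84 splits allow no p below 0.0238. By unadjusted p it ranked 694 of 15491 probe sets. It was the only one of the 10 with all 3 salamander arrays above the control median, which 16.8% of all probe sets showed. Weak marks lay on 2 control arrays and 0 salamander arrays. With 1 array left out the difference stayed between 1.08 and 1.58, and its unadjusted p between 0.0117 and 0.131. After quantile normalization it was 1.11 with an unadjusted p of 0.0807.

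For cebpb.L the control arrays ran from -0.58 to 0.97 and the salamander arrays read -0.75, 2.88 and -0.81. No salamander array lay inside the control range: array 2 was above all controls and arrays 1 and 3 below all of them. The salamander mean of 0.44 ± 2.11 (SD, n = 3) thus describes no single array. The difference was 0.39 (SE 0.76; interval -1.27 to 2.06), and without salamander array 2 it was -0.83. Weak marks lay on 4 of its 9 values, 3 of them in controls.

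The phosphatases Dusp1 and Dusp6 end MAP kinase signals. Dusp1 acts in the nucleus and is itself induced by glucocorticoids and stress, and Dusp6 acts on ERK in the cytoplasm and is induced by ERK signalling. The dusp1.L signal ran from -0.24 to 2.01 on control arrays and was 2.56, -0.07 and 2.88 on salamander arrays 1, 2 and 3. Salamander arrays 1 and 3 were above all controls, whereas array 2 lay among them. Its difference of 1.45 (SE 0.72), or 2.74-fold, was the highest of the 10, with an interval of -0.13 to 3.03, and an adjusted p of 0.950 in limma (0.0678 before adjustment). Control array 3, at 2.01, stood apart from the other controls, the next of which was 0.47. The difference was 1.79 without control array 3, 2.38 without salamander array 2 and 0.91 without salamander array 3. Weak marks lay on 6 of the 9 arrays, the most of the 10 probe sets, 3 of them control and 3 salamander arrays.

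The probe set named for the other Xenopus copy, dusp1.S, read from -1.55 to 1.99 on control arrays and 2.52, -0.49 and -0.57 on salamander arrays. Only salamander array 1 lay outside the control range. The difference was 0.24 (SE 0.86; interval -1.65 to 2.12), and -0.78 without salamander array 1. Both dusp1 probe sets were high on salamander array 1 and differed on array 3, where dusp1.L read 2.88 and dusp1.S -0.57. Over the 9 arrays their values correlated at 0.18, given as a description because the arrays are shared.

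For dusp6.L the control arrays ran from -0.92 to 0.78 and the salamander arrays read -0.84, -0.83 and -0.68. The 3 salamander arrays were below 5 of the 6 controls, and control array 5 was lower still. Their mean was -0.78 ± 0.085 (SD, n = 3) against 0.0018 ± 0.67 (SD, n = 6) in controls. The difference of -0.78 (SE 0.48; interval -1.84 to 0.27) had p = 0.132 unadjusted and 0.986 adjusted in limma, and an exact two-sided permutation p of 0.0952. It stayed between -0.97 and -0.63 with 1 array left out. All 3 salamander arrays lay below the control median in 2 of the 10 probe sets, dusp6.L and btg1.L, and in 16.8% of all probe sets. Of the 9 values of dusp6.L, 4 were marked as weak, 2 in each group.

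Btg1 is an antiproliferative protein that recruits the CCR4-NOT deadenylase to messenger RNAs, and its gene responds quickly to growth factors and stress in mammalian cells. The btg1.L signal ran from -1.24 to 0.84 on control arrays and was -0.25, -0.56 and -0.95 on the salamander arrays, all inside the control range. The difference was -0.50 (SE 0.57; interval -1.76 to 0.75). It was -0.32 without control array 2 or without salamander array 3, and -0.74 without control array 5. The btg1.S signal ran from -0.83 to 1.70 on control arrays and was 0.56, -1.40 and 1.32 on the salamander arrays, of which array 2 lay below all controls. Its difference was -0.19 (SE 0.74; interval -1.82 to 1.44), and leaving out salamander array 3 or 2 gave -0.77 or 0.59. The btg1 probe sets correlated at 0.032 over the 9 arrays, and their weak marks numbered 0 for btg1.L and 2 for btg1.S.

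**Figure D2:**
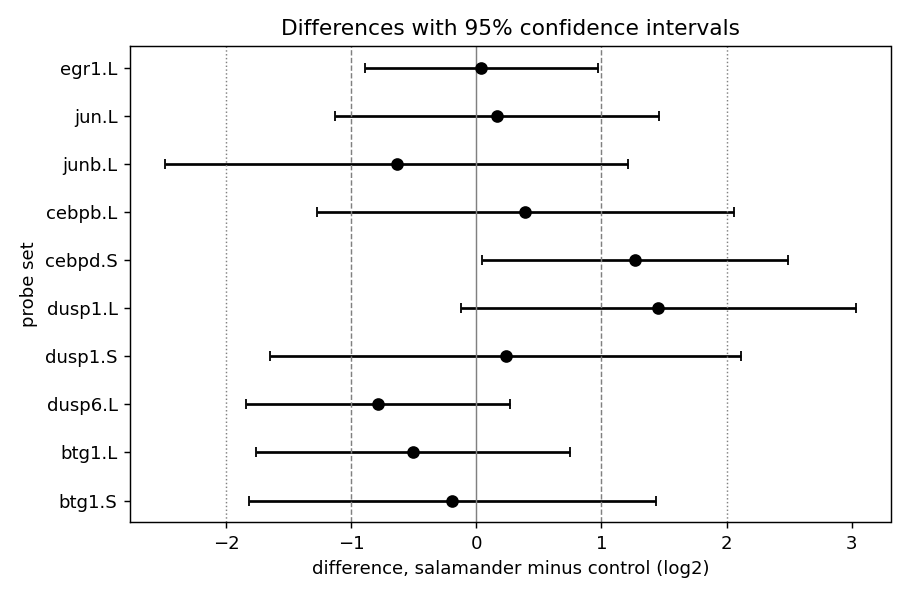
Difference between group means, salamander minus control, on the log2 scale (horizontal axis) for each probe set (vertical axis), with 95% confidence intervals from limma over 9 arrays. Dashed lines mark 2-fold and dotted lines 4-fold either way; the interval of cebpd.S, from 0.05 to 2.49, is the only one that leaves out 0, and that of egr1.L the only one within 2-fold.

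The precision set what these arrays could show. The half-width of the interval ran from 0.93 for egr1.L to 1.88 for dusp1.S on the log2 scale. A 4-fold difference either way was excluded for 5 of the 10, namely egr1.L, jun.L, dusp6.L and both btg1 probe sets, and for 54.6% of all probe sets. The replicate SD was above the median of all probe sets, 0.964, for 5 of the 10. At least 1 salamander array lay outside the control range in 6 of the 10, against 57.9% of all probe sets. The labels call the samples biological replicates but do not say whether the tadpoles came from separate clutches or tanks, so the p-values measure only the spread between these samples. In pooled whole brains, fewer cells of a type and less RNA per cell cannot be told apart.

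The 10 probe sets did not move together as a set from array to array. Of their 45 pairs, 24 had a positive correlation over the 9 arrays, with a median of 0.021 and a range from -0.72, between cebpd.S and dusp6.L, to 0.70, between btg1.L and egr1.L. The next highest were 0.68 between btg1.L and dusp6.L and 0.63 between dusp6.L and egr1.L. With the group means taken out, egr1.L correlated at 0.83 with dusp6.L and 0.76 with btg1.L, and btg1.L with dusp6.L at 0.64. The lowest such value was -0.77, between cebpb.L and dusp1.L. The correlations of the values describe 9 arrays whose group and technical differences the probe sets share, and taking out group means leaves the technical ones. On single arrays, the number of the 10 above the control median was 6, 3 and 4 on salamander arrays 1, 2 and 3 and ran from 3 to 7 on controls. By the measure of Pearson correlation over the 9 arrays, the named probe sets most like egr1.L were ankrd42.L at 0.940, tspan15.L at 0.925 and paaf1.S at 0.922. Among the 9294 compared, 11 had a correlation over 0.9, and 5 had one under -0.9. The differences of the 3 most like egr1.L between groups were 0.20 (SE 0.62), -0.20 (SE 0.59) and -0.02 (SE 0.57). As they were chosen by likeness to egr1.L over the same arrays, these differences are no independent observation.

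The poly-A spike-in RNAs, added to the sample before labelling, separated the arrays into a high set and a low set. Their mean was 0.99 to 1.60 on control arrays 2, 3 and 4 and salamander arrays 1 and 2, and -1.89 to -1.02 on control arrays 1, 5 and 6 and salamander array 3. The Affymetrix hybridization controls separated the arrays in the same way, at 0.09 to 0.38 in the high set and -0.25 to -0.08 in the low set. The labels name no batch or scan, so what set the arrays apart is unknown here. The controls themselves separated by set, without overlap, in 2 of the 10 probe sets and in 10.5% of all. About that share is expected where 3 arrays are set against 3 at random. In btg1.L the high controls averaged 0.73 and the low controls -0.90, and in dusp1.S they averaged -0.60 and 1.11. Within the sets the difference kept its sign in 4 of the 10, btg1.L, cebpd.S, dusp1.L and dusp6.L, against 50.2% of all probe sets. For cebpd.S it was 1.28 in the high set and 1.39 in the low set, as large as over all arrays. For dusp1.L it was 0.68 and 2.77, for dusp6.L -1.22 and -0.30, and for btg1.L -1.13 and -0.06. For dusp1.S it was 1.62 in the high set and -1.68 in the low set, and for junb.L -1.52 and 1.10. The signs also opposed in cebpb.L, at 0.84 and -0.68, jun.L, at 0.58 and -0.89, btg1.S, at -0.81 and 1.004, and egr1.L, at -0.13 and 0.13. The low-set values rest on salamander array 3 alone.

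**Figure D3:**
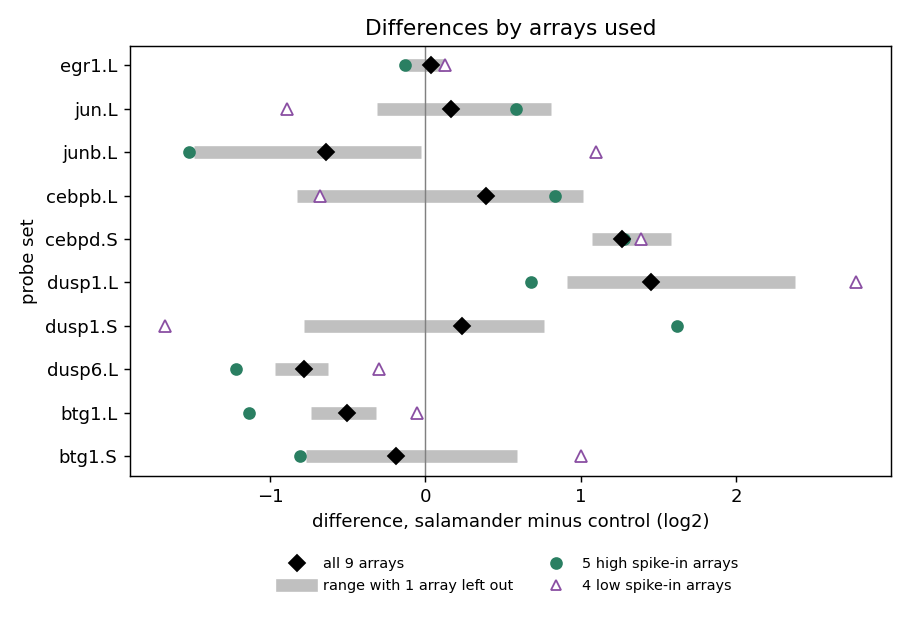
Difference, salamander minus control, on the log2 scale (horizontal axis) for each probe set (vertical axis) over all 9 arrays (diamonds), with 1 array left out in turn (grey bars from lowest to highest), within the 5 high spike-in arrays (circles) and within the 4 low spike-in arrays (open triangles). The values of cebpd.S lie between 1.08 and 1.58 throughout, whereas those of dusp1.S run from -1.68 to 1.62.

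Genes that act with these members were taken from lists by family and role. Of 158 listed genes, 74 had a probe set, 144 in all, of which 68 were higher and 76 lower with salamanders, with a median difference of -0.02. None passed the test over all probe sets, against 0 in the whole table. At an unadjusted p under 0.05 stood 10 of the 144, or 6.94%, against 5.15% of all probe sets; 2 were higher and 8 lower, against 2.12% and 3.03% of all. The groups did not overlap in 7, or 4.86%, against 2.33% of all. The gene camk2g alone held 23 of the 144 probe sets and 3 of those 10, and the same 3 were among the 7. Both shares thus lean on 1 gene with many probe sets. Probe sets of the same gene had differences of the same sign in 160 of 317 pairs, or 50.5%. The gene camk2g alone gave 253 of these pairs, 127 of them of the same sign, and the other 36 genes with several probe sets gave 33 of 64, or 51.6%. Signs unrelated to each other would agree about as often. A difference given below is therefore that of a probe set, and not shown to be that of its gene.

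Among the AP-1 and EGR family, 2 probe sets were measured. The factor egr2.L, which also patterns the hindbrain, differed by -0.37 (SE 0.53), and the AP-1 subunit jund.S by 0.21 (SE 0.73). The groups overlapped in both. In the list for the C/EBP family and its partners, 2 of 5 probe sets were positive. This list includes cebpz, placed there by its symbol alone. The smallest p-values were those of cebpa.S at -0.93 (SE 0.66) and cebpg.L at -0.64 (SE 0.78). No probe set was matched to the 11 other MAP kinase phosphatases listed.

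In the BTG and TOB family, 4 of 5 probe sets were positive with a median of 0.46. The lowest was btg4.L, whose gene is known in mammals for clearing maternal messenger RNA in eggs. It read from -1.21 to 0.37 on control arrays and -2.63, -2.67 and -1.04 on the salamander arrays. The difference of -1.93 (SE 0.54) had an adjusted p of 0.734 in limma (0.0041 before adjustment). Salamander arrays 1 and 2 lay below all controls and array 3 inside their range. The probe set named for the other Xenopus copy, btg4.S, stood at 0.46 (SE 0.57), on the other side of 0.

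Of 64 probe sets for kinases and upstream factors, 33 were positive with a median of 0.02. The calcium and calmodulin kinase gene camk2g held 23 of them, 14 positive, running from -2.18 to 1.57. Of these 23, 3 had an unadjusted p under 0.05 in limma, a level that 5.15% of all probe sets reached. The 23 are annotated to the same gene and are not independent observations. Both probe sets with the smallest p-values in the list were annotated to camk2g.S and lay on opposite sides. One read -2.24, -2.98 and -2.96 on the salamander arrays, below all controls, and had a difference of -2.18 (SE 0.63; adjusted p = 0.734 in limma). The other read 0.46, 1.70 and 2.15, above all controls, and had a difference of 1.57 (SE 0.51, adjusted p = 0.804 in limma). Weak marks lay on 4 of the 9 values of the first and on 3 of those of the second.

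Of 68 probe sets for other activity-induced and early response genes, 28 were positive with a median of -0.19. The corticosteroid-responsive kinase probe set sgk1.L read -2.12, -1.87 and -2.42 on the salamander arrays and from -2.89 to 1.33 on controls, a difference of -1.97 (SE 0.80; adjusted p = 0.884 in limma). The salamander arrays were close to each other, yet 1 control array was lower than all of them. Weak marks lay on 3 of the 9 values of sgk1.L. For the growth factor response gene myc, the probe set myc.S with the smallest p-value read -0.73, -0.57 and -2.11, below all controls, which ran from -0.44 to 0.18. Its difference was -1.10 (SE 0.46; adjusted p = 0.903 in limma). The other probe sets for myc.S stood at 0.93 (SE 0.77) and -0.37 (SE 0.55), and those for myc.L at -0.35 (SE 0.63) and 0.21 (SE 0.70), on both sides of 0. Of their 9 values each, 8 and 6 carried weak marks for myc.S and 2 and 3 for myc.L, against 0 for the first probe set. At an unadjusted p under 0.05 stood 3 of the 68, or 4.41%, near the 5.15% of all probe sets; the 3 were lower with salamanders, as were 3.03% of all.

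**Figure D4:**
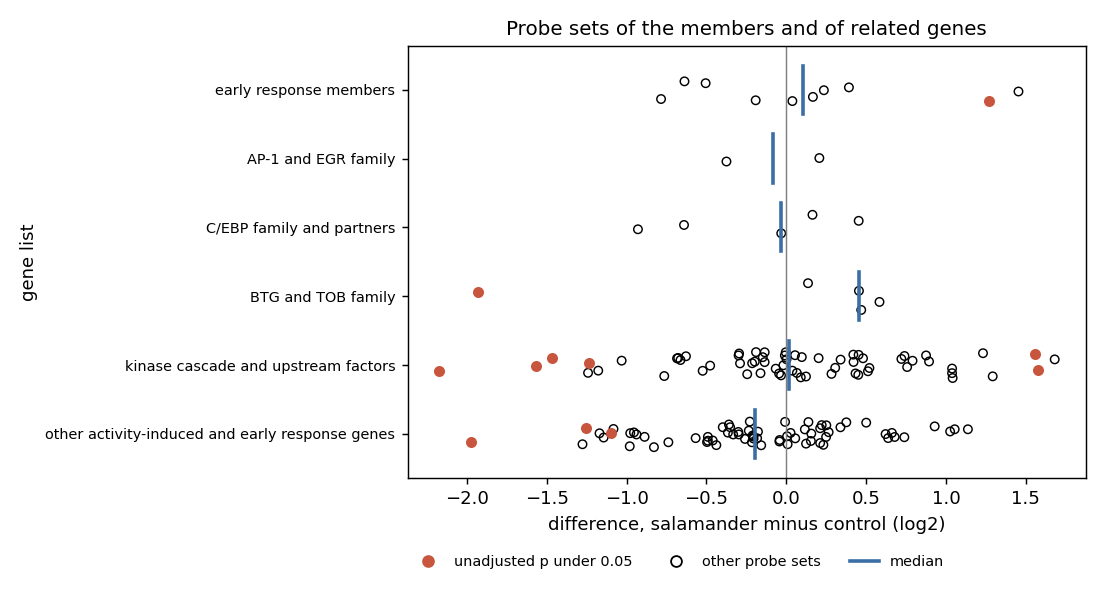
Difference, salamander minus control, on the log2 scale (horizontal axis) of every probe set of the early response members and of 5 lists of related genes (vertical axis; points are spread within a list for visibility). Red points have an unadjusted p under 0.05 and blue bars are list medians; in the kinase list the red points lie on both sides of 0, with 2 of 64 higher (3.12%, against 2.12% of all probe sets) and 4 lower (6.25%, against 3.03%).

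Marker lists of cell types were read on the same arrays, as means over their probe sets. The neuron list, 17 probe sets for 11 genes, averaged 0.46, 0.43 and 0.70 on the salamander arrays and -0.24 to 0.23 on controls. The glia list, 6 probe sets for glul, mbp and pmp22, averaged -0.86, -0.45 and -0.53 on the salamander arrays and -0.37 to 0.34 on controls. The list means of the groups did not overlap in either, but among single probe sets the groups were apart in 1 of 17 for neurons and 0 of 6 for glia, against 2.33% of all. How often the means of unrelated lists of this size separate was not tested. Positive were 12 of the 17 neuron and 1 of the 6 glia probe sets, and the neuron probe sets with the smallest p-values were ina.S at 2.68 (SE 0.71) and nefm.S at 1.84 (SE 0.61). Those of the glia list were pmp22.L at -1.33 (SE 0.57) and pmp22.S at -1.34 (SE 0.73), and the list means rest in large part on these few probe sets. The median difference, which single probe sets move less, was 0.61 over the neuron and -0.55 over the glia probe sets. Earlier results on these arrays, in which ina was high and pmp22 low, were known when the lists were drawn up, so their direction is no independent evidence. For skeletal muscle, 12 probe sets, 10 of them positive, averaged 0.06, 0.48 and 0.35 with salamanders and -0.24 to 0.08 in controls. Salamander array 1 thus lay below the highest control, and the groups were apart in 0 of the 12 single probe sets. Microglia and leukocyte, red cell and keratin lists also overlapped between groups, at -0.21 to 0.39, -0.67 to 0.13 and -0.85 to 0.90 on the salamander arrays. Among their single probe sets the groups were apart in 1 of 8, 1 of 7 and 0 of 7, against 2.33% of all. Positive were 4 of the 8, 2 of the 7 and 3 of the 7, with median differences of -0.10, -0.31 and -0.36. The smallest p-values in these lists were those of ctss.S at 2.39 (SE 0.64), slc4a1.L at -1.90 (SE 0.57) and epcam.S at 1.67 (SE 0.89). Other probe sets of the same lists had the opposite sign, such as lcp1.S at -0.76 (SE 0.68), hbd.S at 1.05 (SE 0.61) and krt12.4.S at -1.38 (SE 0.75). None of the marker probe sets passed the test over all probe sets. The part of these shifts in the differences of the early response probe sets was not tested.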

How the data were processed

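The authors used MAS5, Affymetrix's signal algorithm, per the submitters' processing notes, which give no version here. The authors deposited log2 values for 15611 probe sets on 9 arrays, with 0 columns of other samples. The logarithm and the centring of each probe set on its 6 control arrays (largest departure of the control median 9.5e-07) were read from the values; the scaling between arrays is unknown. Array medians lay between -0.0084 and 0.0069.

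Groups and replicate numbers came from the titles. Limma 3.58.1 in R 4.3.3 (lmFit, eBayes without trend) was fitted to all 15491 probe sets other than 120 Affymetrix controls, salamander minus control. P-values were adjusted over all of them by Benjamini-Hochberg. Exact permutation tests used scipy 1.17.1. The fit and the weak marks were tested on simulated data. The simulated noise was independent between arrays and, for the weak marks, smaller than the median replicate SD here. These runs therefore checked the code and not its assumptions.

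Names came from the platform annotation (9304 probe sets with 1 symbol, 195 with several). Named were all probe sets of the members, the 2 with the smallest p in each list and the 3 most like egr1.L; others are said to be outside this rule or belong to the marker lists. Members and lists were chosen with earlier results of these data known.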

Additional observations from a re-analysis of the deposited data

Results flagged for a closer look

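Among the 6 control arrays, dusp1.L on control array 3, at 2.01, stood apart from the others, with a gap to the next control of 0.684 of the whole range, above Dixon's 95% critical value of 0.625. Of the 10 probe sets examined in this way 1 passed that value, and chance alone passes about 1 in 20 groups. The lowest control of egr1.L, array 5 at -0.98, came close, with a gap of 0.618 of the range.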

How the results depend on the processing

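Of the 10 early response probe sets 0 were called under any alternative run, and 0 of all probe sets; the smallest adjusted p of a member was 0.742, for dusp1.L without salamander array 2. Members at an unadjusted p under 0.05 numbered 1 over all arrays (cebpd.S), 0 after quantile normalization, without moderation, among bright probe sets (at most 1 weak mark, which leaves out cebpd.S) and among high spike-in arrays, and 0 to 2 with 1 array left out. In the low set the 1 such probe set was dusp1.L in place of cebpd.S. The related genes' count of 10 became 5 after quantile normalization and with the replicate number as a block, 5 of only 70 bright probe sets (7.14%, against 6.94% of 144), and lay between 7 and 10 with 1 array left out. Of 203 member values under alternatives 185 kept their sign and side of the threshold. This is no measure of stability, since no adjusted p came near the threshold. The permutation test, the fit without moderation, and the runs on bright probe sets or with Affymetrix controls kept leave the difference unchanged by construction. So does the mean over a gene's probe sets where there is only 1. The sign turned in the low set for btg1.S (1.004), cebpb.L (-0.68), dusp1.S (-1.68), jun.L (-0.89) and junb.L (1.10), and for egr1.L with the spike-in set as a block (-0.032), in the high set (-0.13) and with the replicate block (-0.061). With 1 array left out it turned in 5: btg1.S from -0.77 to 0.59, cebpb.L from -0.83 to 1.02, dusp1.S from -0.78 to 0.77, egr1.L from -0.13 to 0.12 and jun.L from -0.31 to 0.81. The cause of these turns was not tested. Same-numbered arrays did not deviate together (correlations 0.0059, 0.016 and -0.0049). Arrays of the same spike-in set were also near 0 by this measure, as control array 2 with salamander array 1 at 0.0013. The measure therefore cannot decide whether the replicate block, under which cebpd.S was 1.65, pairs more than numbers. Controls whose number no salamander array shares add nothing to any difference under that block, so its values also rest on fewer controls. The intensity trend was not run because the values carry no level. In the low set, salamander array 3 is alone and is taken to vary like the controls.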
